A study of Mus musculus with 36 samples.

Results

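The comparison was made between B3 cells carrying inducible Ikaros at 12 h and at 6 h after 4-hydroxytamoxifen (4-OHT), in 3 libraries per time point taken from culture batches 1, 3 and 4. The 6 libraries were 6 of the 36 in the series and were chosen by their labels alone, and all 12762 genes of the table were tested. B3 cells are a line of mouse pre-B lymphocytes. The Ikaros cells had been transduced with a retrovirus encoding HA-tagged Ikaros fused to the ERt2 hormone-binding domain, with GFP on the same transcript, and the control cells with the same vector without Ikaros. Both lines received 0.5 uM 4-OHT, the drug that lets an ERt2 fusion enter the nucleus, at every time after 0 h, and the control groups at 6 h and 12 h were used for comparison. The drug was given at staggered times to flasks split from 1 expanded, GFP-sorted culture of each line per batch, so the 6 h and 12 h Ikaros libraries of a batch shared a culture, and the whole system was 1 cell line with Ikaros driven by a viral promoter rather than by its own locus. Messenger RNA was sequenced, and the values are normalised log2 expression, in which a difference of 1 is a 2-fold change.

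Ikaros, encoded by Ikzf1, is a zinc-finger protein that binds DNA and is needed for lymphocyte development. In the bone marrow, large pre-B cells divide under signals from the pre-B receptor and the interleukin-7 receptor. They then leave the cell cycle, shrink and rearrange the immunoglobulin light chain genes, and Ikaros takes part in this transition. The pre-B receptor is made of the mu heavy chain, the surrogate light chain proteins encoded by Igll1 and Vpreb1, and the signalling chains Cd79a and Cd79b.

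Ikzf1 itself was at 20.80, 20.57 and 20.28 in the 6 h Ikaros libraries of batches 1, 3 and 4, and at 20.76, 20.79 and 20.52 at 12 h. These ranges overlapped, and the change of 0.14 was not called (SE 0.14, adjusted p = 0.482). Reads from the introduced Ikaros sequence cannot be told apart from those of the endogenous gene. All 10 B cell precursor markers were in the table, and 7 of them rose and 3 fell. Among markers of other cells the table held 1 of 8 for T cells (Lck), 2 of 8 for myeloid cells (Lyz2 and Itgam), 3 of 7 for erythroid cells and 2 of 5 for plasma cells. Their summed log2 level in the Ikaros libraries went from 10.6-10.9 at 6 h to 10.3-10.7 at 12 h for the T cell list, from 7.82-8.79 to 8.43-8.87 for the myeloid list and from 7.32-8.37 to 8.51-8.94 for the erythroid list. The plasma cell list (Mzb1 and Irf4) lay at 15.6-15.9 at both times. The B cell precursor list lay at 19.0-19.1 and 19.3-19.5. The myeloid defining markers Csf1r and Mpo, the T cell markers Cd3e and Cd4 and the erythroid marker Gata1 were among those not in the table. Lyz2, a lysozyme of myeloid cells, was at 7.39, 7.31 and 5.64 at 6 h and at 4.43, 3.91 and 5.99 at 12 h, so batch 4 moved in the opposite direction to the other batches. Its change of -2.01 was called (adjusted p = 0.0198), but not without batch 1 (adjusted p = 0.142) or batch 3 (adjusted p = 0.217). The other myeloid marker, Itgam, had a positive change that was not called. The erythroid marker Klf1 was called higher, but not without batch 3 (adjusted p = 0.0513) or batch 4 (adjusted p = 0.327). The part of other cell types in the results was not tested. In bulk RNA, fewer cells of a type and less RNA per cell cannot be told apart.

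From 6 h to 12 h, 3205 genes changed in the Ikaros cells, which is 25.1% of those tested. They comprised 1661 that rose (13.0%) and 1544 that fell (12.1%). A change of at least 1 on the log2 scale was seen for 630 genes (4.94%), made up of 379 of the genes that rose (2.97%) and 251 that fell (1.97%). The median change over all genes was -0.01, and the median size of the called changes was 0.58. A gene is called here at a Benjamini-Hochberg adjusted p under 0.05 from limma. The 6 h and 12 h values did not overlap for 3730 genes (29.2%). Across the 6381 genes at or above the median level, the paired 12 h minus 6 h differences correlated at 0.41 between batches 1 and 3, at 0.40 between batches 1 and 4 and at 0.63 between batches 3 and 4. Over all genes the values were 0.34, 0.31 and 0.40. In control cells, over the genes at or above the median level, they were 0.53, 0.63 and 0.67. These correlations are over genes, which are not independent and share their libraries and normalisation. No Ikaros 6 h library shared a preparation run with an Ikaros 12 h library, so within these 6 libraries preparation and time cannot be told apart. The runs are those named in the quality sheet of the series. The deposited values had already been corrected for library preparation with ComBat, so a term for it fitted here is a further correction. It moved the log2 changes by a median of 0.05 and raised the median standard error from 0.16 to 0.224. With that term, estimated from the 30 libraries at 2 h to 24 h, 739 of the 3205 genes were still called (5.79% of those tested, 3.49% higher and 2.30% lower), and all 3205 kept their direction. Batch 4 weighed most on the count, which was 1361 without it, 1999 without its 6 h library and 1894 without its 12 h library.

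**Figure D1:**
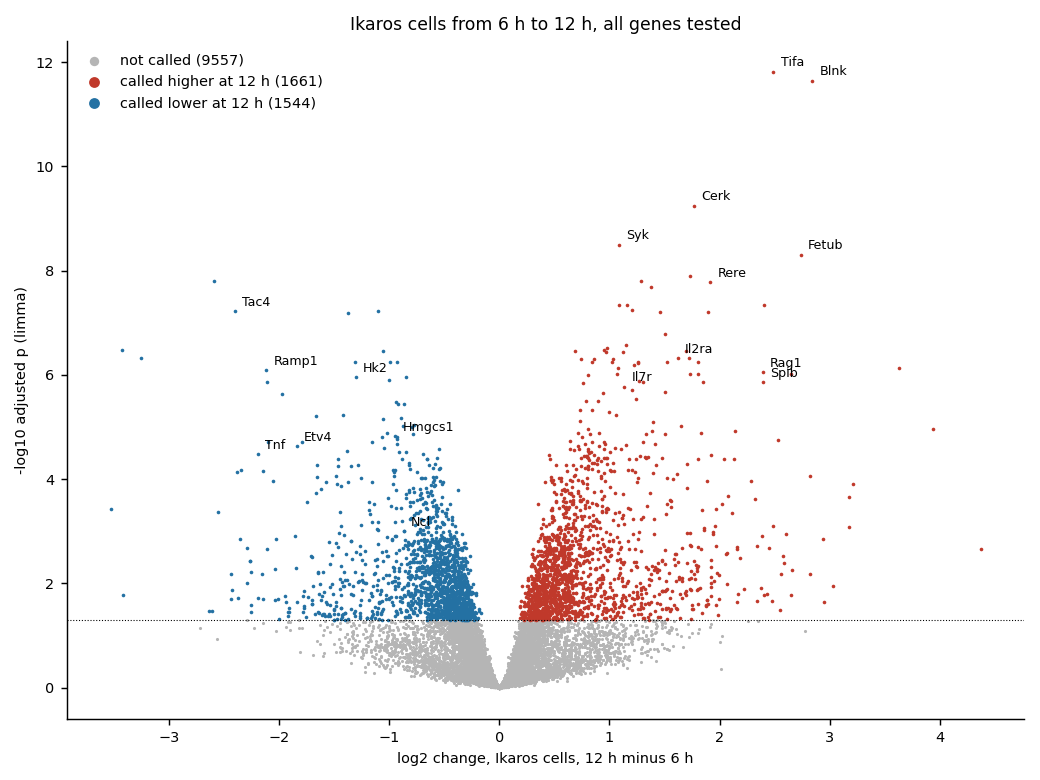
Each point is a gene, with its log2 change from 6 h to 12 h in Ikaros cells on the x axis and the negative log10 of the limma adjusted p on the y axis. The 1661 genes called higher are red, the 1544 called lower are blue, and the dotted line is at an adjusted p of 0.05. Tifa and Blnk have the smallest adjusted p among the labelled genes.

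The largest rise among genes whose mean over all 36 libraries was at or above the median of the table, and whose 6 h and 12 h values did not overlap, was that of Blnk, which encodes the adaptor that couples Syk kinase to the signalling chain below the pre-B receptor. Blnk (chr19:40928927-40994535, minus strand, mm10) was at 11.16, 10.84 and 10.61 in the 6 h libraries and at 13.82, 13.78 and 13.54 at 12 h. The level rose by 2.84 (SE 0.12, 7.17-fold, adjusted p = 2.27e-12). Tifa (chr3:127789805-127832164, plus strand), an adaptor that activates NF-kB through TRAF6, was at 11.15, 10.88 and 10.82 at 6 h and at 13.57, 13.31 and 13.44 at 12 h. Tifa rose by 2.49 (SE 0.10, 5.61-fold, adjusted p = 1.51e-12). Fetub, which encodes the secreted protease inhibitor fetuin B, went from 11.48, 11.57 and 11.50 to 14.36, 14.31 and 14.08, a rise of 2.74 (SE 0.18, adjusted p = 4.96e-09). Cerk, the kinase that phosphorylates ceramide, went from 13.38, 13.03 and 13.00 to 15.01, 14.77 and 14.92. Cerk thus rose by 1.76 (SE 0.10, adjusted p = 5.67e-10). Separate groups were required by the rule, so they are no further result for these genes. The other named rises were Rere, a nuclear co-regulator (1.92), Osr2, a zinc-finger factor (1.80), Hsd17b11, a lipid droplet dehydrogenase (1.73), Lipa, the lysosomal acid lipase (1.65), Il2ra, the CD25 chain of pre-B and activated lymphocytes (1.62), and Atp1b3, a subunit of the sodium pump (1.46). The transcripts Gm10138 (2.04) and Gm12840 (1.94) completed the set of 12. All 12 were called without any single Ikaros library or batch and with the preparation term.

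Tac4 (chr11:95261529-95269265, plus strand), which encodes the tachykinin hemokinin made by B cell precursors, had the largest fall by the same rule. It was at 12.19, 12.85 and 12.32 at 6 h and at 9.89, 10.49 and 9.78 at 12 h. Tac4 fell by 2.40 on the log2 scale (SE 0.19, 5.27-fold lower, adjusted p = 5.97e-08). The cytokine gene Tnf went from 11.84, 12.82 and 11.71 to 9.13, 10.63 and 10.04, a change of -2.19 (SE 0.30, adjusted p = 3.34e-05). Ramp1, an accessory chain of peptide hormone receptors, went from 11.65, 12.06 and 11.81 to 9.50, 9.54 and 10.12, a change of -2.12 (SE 0.21, adjusted p = 8.16e-07). Groups without overlap were required by the rule for all 12 falls. Etv4, an ETS factor induced by ERK signalling (-1.84), Phlda1, a growth factor-responsive gene (-1.67), Tnni2, a troponin (-1.66), and Sox15, an HMG box factor (-1.47), also fell. The remaining members of the 12 falls, Rpl31-ps8 (-2.37), Fkbp11 (-2.03), Snora78 (-2.03), AF357399 (-1.50) and Gm24305 (-1.43), were not called with the preparation term. Without batch 4 their adjusted p was 0.286, 0.177, 0.498, 0.272 and 0.138, respectively. Rpl31-ps8 is a ribosomal protein pseudogene and shares reads with its parent gene, and Snora78 and AF357399 are small RNAs without the poly(A) tail by which messenger RNA was selected. At 12 h in batch 4 the median over the 131 small nucleolar RNAs was 8.93, against 10.80 and 10.73 in batches 1 and 3. Of the 131, 1 rose and 11 fell, so neither share exceeded the 13.0% of all genes that rose and the 12.1% that fell.

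The pre-B receptor genes moved in both directions, with 3 of 7 up and 2 of 7 down. Counts by gene list are read beside the 13.0% of all genes that rose and the 12.1% that fell. Igll1 (lambda 5) was at 12.88, 13.28 and 12.93 at 6 h and at 12.39, 12.37 and 11.87 at 12 h, a change of -0.82 (SE 0.21, adjusted p = 0.00759). Vpreb1 (V pre-B) was at 13.47, 14.09 and 13.88 and then at 12.74, 12.68 and 12.70, a change of -1.11 (SE 0.26, adjusted p = 0.0046). In each gene the groups did not overlap, but the call for Igll1 was lost without batch 4 (adjusted p = 0.0807) or without its 12 h library (adjusted p = 0.0618). Vpreb2, whose sequence is close enough to Vpreb1 to share reads with it, changed by -0.45 and was not called (adjusted p = 0.277). In contrast, the signalling chain Cd79b rose from 16.44, 16.44 and 16.39 to 17.09, 16.87 and 16.72 (0.47, SE 0.08, adjusted p = 0.0005). Cd79a (0.40) and the mu chain gene Ighm (0.51) were also called higher. Without batch 4 the adjusted p was 0.143 for Cd79a and 0.0511 for Ighm, and without batch 3 it was 0.12 and 0.0879.

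Below the receptor, 6 of 20 signalling genes rose and 3 fell, with a median of 0.14. The share called was 45.0%, against 25.1% of all genes. Syk, the kinase recruited by the receptor, was at 14.55, 14.40 and 14.33 at 6 h and at 15.54, 15.57 and 15.42 at 12 h. The 12 h libraries were all higher, by 1.09 (SE 0.07, 2.12-fold, adjusted p = 3.14e-09). Lyn, a Src family kinase (0.59), and Dok3, an inhibitory adaptor (0.79), rose as well, and Btk, which acts beside Blnk, changed by -0.03 (adjusted p = 0.892). Fyn, another Src family kinase, fell from 13.47, 13.57 and 13.70 to 13.11, 13.09 and 12.73 (-0.60, SE 0.09, adjusted p = 9.05e-05). Thus Blnk and Syk were higher while the kinase gene Fyn was lower, and each of these calls held without any single batch.

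**Figure D2:**
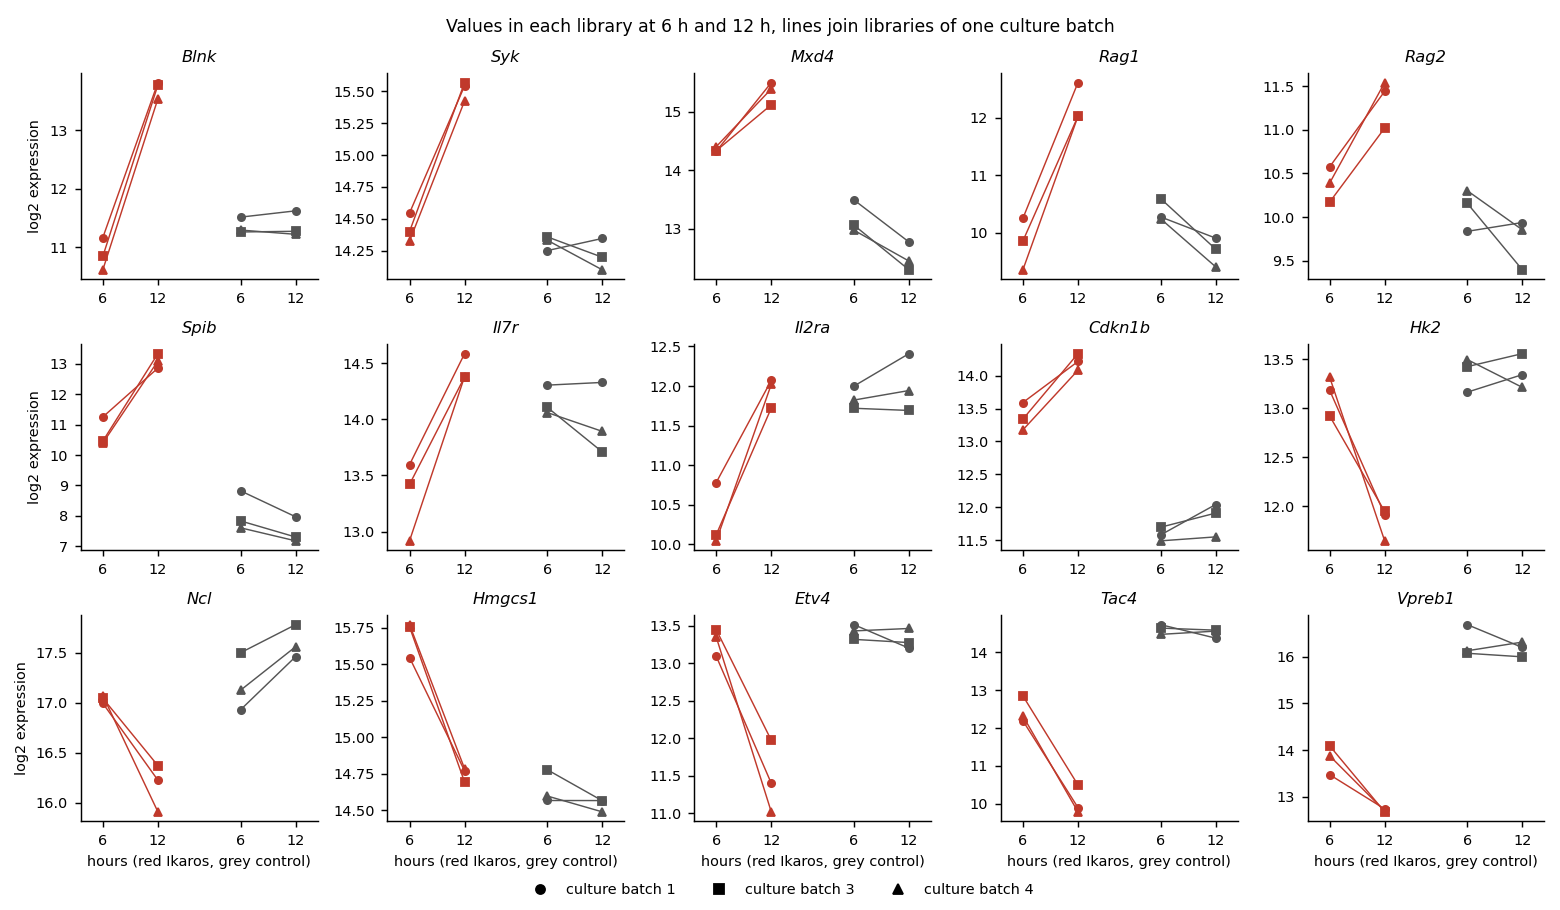
Each panel plots the log2 expression of a gene (y axis, not starting at 0) in every library at 6 h and 12 h, with Ikaros cells in red, control cells in grey, and lines joining libraries of the same culture batch. Blnk rises from 10.61-11.16 to 13.54-13.82 and Tac4 falls from 12.19-12.85 to 9.78-10.49 in Ikaros cells, while their control changes, 0.02 and -0.11, are not called.

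Among 15 genes of V(D)J recombination and end joining, 5 rose and 2 fell, so that 46.7% were called, against 25.1% of all genes. Rag1 (chr2:101638282-101649501, minus strand), which with Rag2 makes the enzyme that cuts the recombination signals, was at 10.25, 9.86 and 9.36 at 6 h and at 12.61, 12.02 and 12.02 at 12 h. All 12 h libraries were higher, by 2.39 (SE 0.24, 5.25-fold, adjusted p = 8.88e-07). Rag2 went from 10.57, 10.17 and 10.39 to 11.44, 11.02 and 11.54, a rise of 0.96 (SE 0.15, adjusted p = 0.000108). Polm, a DNA polymerase of light chain joining, rose by 0.91 (SE 0.11, adjusted p = 1.3e-05). Lig4, the ligase of non-homologous end joining, rose by 0.70 (adjusted p = 0.00385), a call lost without batch 4 (adjusted p = 0.0611). Dntt, the polymerase that adds untemplated bases, was at -0.33 and not called (adjusted p = 0.419). The falls were in Hmgb1 and Hmgb2, DNA-bending cofactors of the RAG enzyme with many processed copies in the genome, and neither was called with the preparation term. Hmgb2 was at -0.74, and without batch 4 its adjusted p was 0.266. The Rag1 promoter is given because its gene rose 5.25-fold in a study of a factor that binds DNA. It spans chr2:101649483-101649782 on the minus strand of GRCm38.p6 in RefSeq, 5′ to 3′, and capitals mark TGGGAA, a core Ikaros motif, sought on both strands.
Rag1 promoter: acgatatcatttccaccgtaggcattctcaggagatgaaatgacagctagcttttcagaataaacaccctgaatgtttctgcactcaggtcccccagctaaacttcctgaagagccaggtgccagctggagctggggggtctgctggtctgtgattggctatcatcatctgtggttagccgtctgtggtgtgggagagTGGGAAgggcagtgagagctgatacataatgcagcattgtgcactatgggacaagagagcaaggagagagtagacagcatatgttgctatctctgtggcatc
TGGGAA occurs in 25.6% of all 32851 promoters of that table, and a match is only a match of letters. It was in 2 of the 15 promoters (13.3%) matched to 13 of the 15 genes of V(D)J recombination and end joining. RefSeq promoters were matched for 67.4% of the genes tested, so shares among all called genes are void.

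B lineage transcription factors had the highest list median, 0.50 against -0.01 over all genes, with 10 of 23 up and 2 down. Spib, an ETS factor of the B lineage, was at 11.26, 10.46 and 10.40 at 6 h and at 12.87, 13.34 and 13.10 at 12 h. It rose by 2.40 with no overlap (SE 0.25, 5.26-fold, adjusted p = 1.39e-06). Irf4, which promotes light chain rearrangement and the exit from cycle, lay near the lower end of the table. Its values of 4.56, 4.18 and 4.63 at 6 h became 6.06, 5.67 and 5.77 at 12 h, a rise of 1.38 (SE 0.34, adjusted p = 0.00646). The call for Irf4 was not kept with the preparation term (adjusted p = 0.129). Pou2af1, a B cell co-activator (1.21), Tcf4, an E protein (1.12), Runx1 (0.90), Sox4 (0.82) and Pax5, the B lineage commitment factor (0.76), were all higher at 12 h, both in the fit above and with the preparation term. Bach2, a transcriptional repressor of plasma cell fate, rose by 0.93. Foxo1, which drives Rag and Il7r transcription, rose by 0.35 (SE 0.09, adjusted p = 0.0061), with 15.29, 15.04 and 15.04 at 6 h against 15.32, 15.58 and 15.51 at 12 h. The Foxo1 groups touched closely and its adjusted p was 0.1 without batch 3 and 0.0899 without batch 4. Ebf1, the early B cell factor, fell from 16.06, 16.38 and 16.37 to 15.54, 15.57 and 15.71 (-0.66, SE 0.14, adjusted p = 0.00197). In control cells Ebf1 changed by -0.48 (adjusted p = 0.0501), and the difference between the lines, -0.19, was not called (adjusted p = 0.533). Irf8 fell as well (-0.66, SE 0.11, adjusted p = 0.000367).

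Receptors of B cell stage and migration rose more often than they fell, 8 against 2 of 22. The share called was 45.5%, beside 25.1% of all genes. Il2ra was at 10.78, 10.12 and 10.05 at 6 h and at 12.07, 11.72 and 12.02 at 12 h. Cxcr4, the chemokine receptor that holds precursors in the marrow, rose by 0.95, Itga4, an adhesion integrin, by 1.03, and S1pr1, the receptor that directs cells into blood, by 1.22. The interleukin-7 receptor gene Il7r was at 13.60, 13.42 and 12.92 at 6 h and at 14.59, 14.38 and 14.38 at 12 h. It rose by 1.14 (SE 0.12, 2.2-fold, adjusted p = 1.69e-06). Of 14 genes of the IL-7 receptor and JAK-STAT5 pathway 5 rose and 1 fell, a share of 42.9%. Il7r alone kept its call with the preparation term. The pathway target genes Socs1 (0.87) and Pim1 (0.79) lost their calls without batch 4, with adjusted p of 0.343 and 0.225.

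Immediate early genes and the feedback genes of ERK signalling split into 8 that rose and 8 that fell, of 27. On the lower side were Etv4, the ERK antagonists Spry1 (-1.37) and Spry4 (-1.14), and the stress and growth factor-induced gene Ier3 (-1.44). Etv4 (chr11:101769742-101785371, minus strand) went from 13.09, 13.45 and 13.35 to 11.40, 11.97 and 11.02 (SE 0.24, adjusted p = 2.34e-05). Dusp6, the ERK phosphatase, was at -0.52 and fell short of the threshold (adjusted p = 0.0562). The higher side included Jund (0.86) and Egr2 (1.94), and also the phosphatase genes Dusp1 and Dusp10. The AP-1 gene Junb was on the lower side, so the sides were mixed in kind. Without batch 4 the calls for Junb (adjusted p = 0.0729) and Dusp10 (adjusted p = 0.28) were lost. Dusp1 lost its call without batch 3 (adjusted p = 0.323). Egr2 was at 6.96, 6.58 and 5.34 at 6 h and at 8.40, 8.60 and 7.70 at 12 h (SE 0.37, adjusted p = 0.00103). Fosb rose by 2.58 with wide spread and overlapping groups, at 9.69, 7.70 and 6.86 and then 11.53, 11.86 and 8.59. Its adjusted p was 0.00297, and 0.0681 without batch 3. Jun rose by 1.92 and behaved alike, with 11.42 in batch 4 at 12 h against 13.77 and 13.80 in the other batches, and an adjusted p of 0.0785 without batch 3.

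Ribosome biogenesis had the lowest median of the 34 lists, -0.43, with 32 of 45 genes called lower and none higher. Ncl (chr1:86344719-86359400, minus strand), nucleolin, was at 17.00, 17.05 and 17.07 at 6 h and at 16.23, 16.37 and 15.91 at 12 h. The values separated fully, with a change of -0.87 (SE 0.17, 1.83-fold lower, adjusted p = 0.000984). Rrp12 (-0.70), Pno1 (-0.65), Dkc1, the pseudouridine synthase (-0.61), Nop2, an rRNA methyltransferase (-0.53), and Wdr12 (-0.51), factors of ribosomal RNA processing and subunit assembly, fell too. By culture batch, the paired differences had list medians of -0.37 (batch 1), -0.27 (batch 3) and -0.60 (batch 4). Without batch 4 the falls numbered 7, and with the preparation term 5. In control cells 1 of the 45 rose and none fell. Polymerase I, which transcribes ribosomal RNA, had 3 of 15 genes lower, including its factor Ubtf (-0.71, SE 0.14, adjusted p = 0.00145). None of its genes was called higher, and the 20.0% called lay below the 25.1% over all genes.

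Promoters are shown for 3 of the falling ribosome biogenesis genes that hold the letters CACGTG, the E-box bound by Myc with Max. They come from RefSeq (GRCm38.p6), 250 bases before to 50 after the gene start, 5′ to 3′, with the motif in capitals. Pno1 lies at chr11:17211540-17211839 on the minus strand, Nop2 at chr6:125131633-125131932 on the plus strand and Nle1 at chr11:82908346-82908645 on the minus strand.
Pno1 promoter: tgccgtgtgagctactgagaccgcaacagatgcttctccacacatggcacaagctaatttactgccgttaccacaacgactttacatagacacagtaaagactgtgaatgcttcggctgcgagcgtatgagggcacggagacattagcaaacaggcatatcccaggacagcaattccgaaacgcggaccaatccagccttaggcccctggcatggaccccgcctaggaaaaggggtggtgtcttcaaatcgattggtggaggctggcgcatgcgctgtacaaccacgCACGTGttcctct
Nop2 promoter: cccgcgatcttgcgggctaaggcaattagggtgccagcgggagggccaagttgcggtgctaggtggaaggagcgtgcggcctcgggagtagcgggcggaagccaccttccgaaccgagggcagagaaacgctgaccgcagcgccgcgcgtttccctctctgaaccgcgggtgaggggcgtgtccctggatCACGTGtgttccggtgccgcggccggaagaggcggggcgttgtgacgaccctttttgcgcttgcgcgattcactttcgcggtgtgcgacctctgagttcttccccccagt
Nle1 promoter: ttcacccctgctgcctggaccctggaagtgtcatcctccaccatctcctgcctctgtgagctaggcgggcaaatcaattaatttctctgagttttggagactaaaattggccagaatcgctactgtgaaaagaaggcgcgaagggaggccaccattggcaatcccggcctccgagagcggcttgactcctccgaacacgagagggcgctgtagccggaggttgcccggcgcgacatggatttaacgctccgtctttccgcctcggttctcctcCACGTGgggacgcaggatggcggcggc
CACGTG, which reads alike on both strands, was in 22.0% of the 41 promoters matched to 38 of the 45 genes. It was in 7.15% of all 32851 promoters of the table. For tested genes it was in 10.0% of 10928 promoters, but only 67.4% of those genes were matched. Lists without a negative median held it too, with 27.8% of 18 promoters for p53 targets and 21.1% of 19 for ER chaperones. Counted by gene, 4 of the 26 members called lower with a promoter held it. A match is only a match of letters, and a part of Myc in these falls was not tested. Nle1, an assembly factor at -0.43, lost its call without batch 4 (adjusted p = 0.138).

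Myc, the growth regulator, was at 14.76, 14.74 and 14.71 at 6 h and at 14.06, 14.23 and 14.57 at 12 h. These groups did not overlap, but the change of -0.45 stood just inside the threshold (SE 0.16, adjusted p = 0.0488). Its adjusted p was 0.254 without batch 1, 0.156 without batch 3 and 0.0505 without batch 4, and 0.271 with the preparation term. Mxd1 and Mxd4 encode Max partners that oppose Myc. Mxd4 went from 14.32, 14.33 and 14.40 to 15.49, 15.12 and 15.39, a rise of 0.98 (SE 0.14, adjusted p = 5.18e-05), and Mxd1 rose by 0.81 (SE 0.15, adjusted p = 0.000805). The other antagonists Mxd3 (-0.26), Mxi1 (-0.22), Mga (-0.26) and Mnt (0.35) were not called. In all, 4 of the 10 genes of the Myc network rose and Myc alone fell.

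Translation genes were described in 3 lists, beside the 25.1% of all genes called. Of 77 cytosolic ribosomal protein genes, 14 fell and none rose, so that 18.2% were called, and the median was -0.31. The batch medians were 0.03, -0.33 and -0.59 in batches 1, 3 and 4. Without batch 4 none was called, and without batch 1 the falls numbered 39. Ribosomal protein genes have many processed copies that share reads with them. Among 33 initiation factors 10 fell, including Eif2b3 (-0.74), whose call held without any single batch. The initiation factors that fell numbered 3 without batch 4 and 1 with the preparation term. Among 20 aminoacyl tRNA synthetases 12 fell, with a median of -0.34, and Yars, which charges tyrosine, went from 14.05, 14.12 and 14.13 to 13.69, 13.62 and 13.12 (-0.62, SE 0.13, adjusted p = 0.00185). Without batch 4 the synthetases that fell numbered 6.

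Of 21 genes of glycolysis and lactate export 9 fell and 1 rose. Hk2 (chr6:82725025-82774454, minus strand), the hexokinase that starts glycolysis, was at 13.18, 12.92 and 13.32 at 6 h and at 11.92, 11.95 and 11.65 at 12 h. It fell by 1.30 with the groups well apart (SE 0.13, 2.47-fold lower, adjusted p = 1.09e-06). Ldha, lactate dehydrogenase, went from 17.85, 18.31 and 18.28 to 17.50, 17.43 and 17.35 (-0.72, SE 0.12, adjusted p = 0.000399). Slc2a1, the glucose transporter GLUT1, went from 14.55, 14.73 and 14.87 to 13.83, 13.87 and 14.29 (-0.72, SE 0.17, adjusted p = 0.00379). None of these genes had overlapping groups. Hk2, Ldha and the phosphofructokinase gene Pfkm (-0.66) were the glycolytic falls kept with the preparation term. Of 20 TCA cycle genes 4 fell and 1 rose, a share near the 25.1% over all genes, and the median was -0.04.

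Counts of falls differed between anabolic pathways and are read beside the 12.1% of all genes that fell. Purine and pyrimidine synthesis had 10 of 17 genes lower, among them Adsl (-0.59) and Pfas (-0.54) of the purine route, and 1 higher, the CTP synthase Ctps2 (0.60). Serine and one-carbon metabolism had 7 of 11 lower. Mthfd2, its mitochondrial enzyme, went from 13.59, 13.98 and 14.01 to 13.25, 13.14 and 13.19 (-0.66, SE 0.11, adjusted p = 0.000282). Amino acid transporters had 4 of 10 lower, with a list median of -0.02. The neutral amino acid carrier Slc1a4 fell furthest (-1.06, SE 0.10, adjusted p = 3.4e-07). Slc7a5, the large neutral amino acid transporter, was at 15.39, 15.28 and 14.69 at 6 h and at 14.34, 14.85 and 14.70 at 12 h, so that the groups overlapped. Its change of -0.49 (adjusted p = 0.0243) was not called without batch 1 (adjusted p = 0.342) or batch 3 (adjusted p = 0.0717). Of 11 genes of the integrated stress response 4 fell, including the ATF4 targets Trib3 (10.47, 10.70 and 10.91 to 9.46, 9.18 and 9.02) and Cth. The changes were -1.47 for Trib3 and -0.91 for Cth, while Atf4 itself was at 0.10 (adjusted p = 0.571).

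Of 29 genes of sterol and fatty acid synthesis 15 fell, none rose and 14 were not called. Hmgcs1, which makes the precursor HMG-CoA, was at 15.55, 15.76 and 15.77 at 6 h and at 14.77, 14.69 and 14.78 at 12 h, a change of -0.94 (SE 0.12, 1.92-fold lower, adjusted p = 1.49e-05). Lss, lanosterol synthase, was at 13.28, 13.66 and 13.42 and then at 12.46, 12.50 and 12.22, a change of -1.06 (SE 0.13, adjusted p = 1.52e-05). Both genes had separate groups. The methyl sterol oxidase gene listed as Sc4mol (-0.88) and Fasn, fatty acid synthase (-0.68), were also lower. The count of falls was 12 without batch 4 and 9 with the preparation term. At the preceding step, from 2 h to 6 h, 13 of these genes rose and 2 fell, with a median of 0.36, where 7.47% of all genes rose and 7.04% fell. At the following step, from 12 h to 18 h, 11 rose and 4 fell, with a median of 0.17, where 14.7% of all genes rose and 16.2% fell. Both neighbouring steps share libraries with the one described, so they are given only side by side. From 18 h to 24 h, which shares none, 8 rose and 1 fell, against 2.66% and 5.65% of all genes.

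Among 22 lysosomal genes 11 rose, none fell and 11 were not called, with a median of 0.33. Neu1, the lysosomal sialidase, was at 12.70, 12.92 and 13.16 at 6 h and at 13.53, 13.46 and 13.71 at 12 h (0.64, SE 0.08, adjusted p = 1.83e-05). The V-ATPase subunit Atp6v0d1 went from 14.42, 14.32 and 14.53 to 15.00, 14.95 and 15.13 (0.60, SE 0.10, adjusted p = 0.000274). In each case all 12 h libraries were higher. The protease Tpp1 (0.55) and Psap, the saposin precursor (0.46), rose as well. The rises numbered 7 without batch 4 and 6 with the preparation term.

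**Figure D3:**
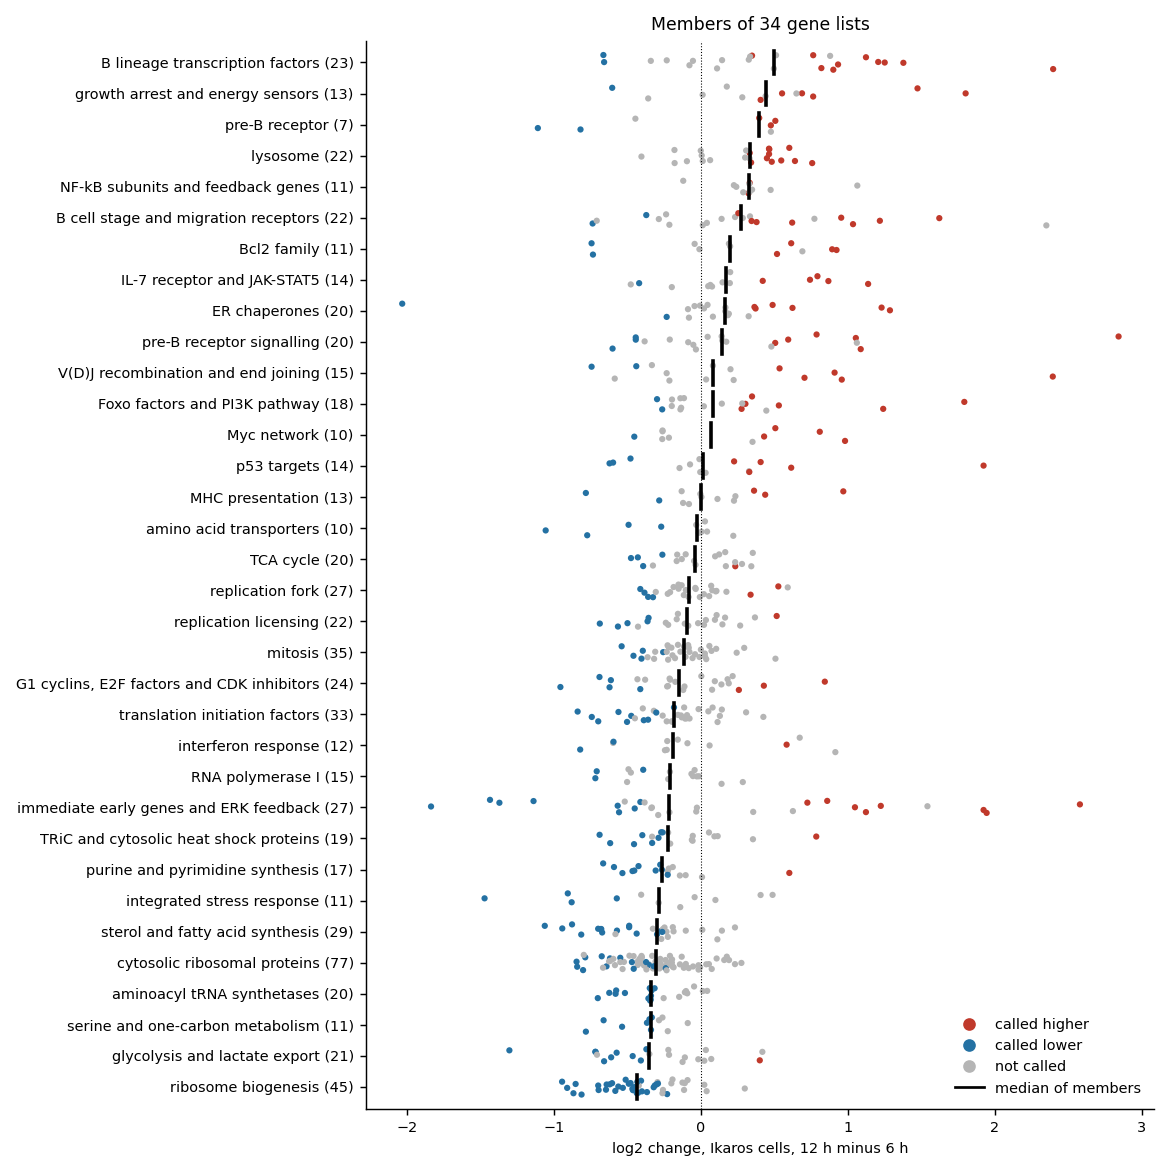
Each point is a gene of 1 of 34 lists, at its log2 change from 6 h to 12 h in Ikaros cells on the x axis, red where called higher, blue where called lower and grey where not called. The black bar is the list median, which runs from 0.50 for B lineage transcription factors to -0.43 for ribosome biogenesis, and list sizes are in parentheses.

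Cell cycle genes had more called falls than rises in each of 4 lists. Licensing factors had 1 up and 5 down of 22, replication fork genes 2 up and 4 down of 27, and mitotic genes 5 down of 35 and none up. The shares called, 27.3%, 22.2% and 14.3%, lay near or below the 25.1% over all genes. The 14.3% of mitotic genes were all falls, beside 12.1% of all genes that fell. Among 24 G1 cyclins, E2F factors and CDK inhibitors 3 rose and 5 fell. Cdkn1b, the p27 inhibitor, was at 13.59, 13.34 and 13.18 at 6 h and at 14.22, 14.34 and 14.08 at 12 h, a rise of 0.84 (SE 0.14, adjusted p = 0.000282). Ccne1, cyclin E1, went from 12.37, 12.18 and 12.50 to 11.67, 11.90 and 11.41, a change of -0.69 (SE 0.13, adjusted p = 0.00093). The groups of both genes stayed apart. Cdkn1a, the p21 inhibitor, was lower by contrast with Cdkn1b (-0.62, SE 0.11, adjusted p = 0.00056). Cdt1, a licensing factor, rose by 0.51 (SE 0.09, adjusted p = 0.000262), Mcm10 fell by 0.50 and the mitotic kinase gene Cdk1 fell by 0.46. Cdk1 was not called without batch 4 (adjusted p = 0.0601). No fall among the licensing, fork and mitotic genes was kept with the preparation term. In the difference between the lines 3 of 22 licensing genes and 7 of 35 mitotic genes were negative and none positive. Fork genes had 7 negative and 1 positive of 27, and the list of G1 cyclins, E2F factors and CDK inhibitors 8 negative and 1 positive of 24. Over all genes 9.57% were negative and 11.0% positive.

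Growth arrest and energy-sensor genes had the second highest median, 0.44, with 6 of 13 up and 1 down. Btg2, an antiproliferative gene, was at 5.61, 5.63 and 6.67 at 6 h and at 7.38, 7.82 and 8.11 at 12 h (1.80, SE 0.38, adjusted p = 0.00204). Klf6, a zinc-finger factor, rose by 1.47 (SE 0.20, adjusted p = 3.86e-05). Of 18 Foxo and PI3 kinase genes 6 rose and 2 fell, so that 44.4% were called, beside 25.1% of all genes. The list median was 0.08, against 0.19 in control cells, where none was called. In the difference between the lines 2 of the 18 were positive and 5 negative, and 1 rise was kept with the preparation term. Pik3ip1, an inhibitor of PI3 kinase, went from 10.75, 10.67 and 11.32 to 12.36, 11.94 and 12.15 (1.24, SE 0.14, adjusted p = 2.92e-06). Klf2, a quiescence factor of lymphocytes, rose by 1.79 but was not called without batch 3 (adjusted p = 0.0716). Among p53 targets 5 rose and 3 fell of 14 (57.1% called), and Trp53inp1 stood out at 1.92 (SE 0.26, adjusted p = 3.36e-05).

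In the Bcl2 family 4 of 11 genes rose and 2 fell, so that 54.5% were called, beside 25.1% of all genes. The pro-apoptotic Bcl2l11 (Bim) went from 11.18, 10.74 and 10.57 to 11.63, 11.45 and 12.08, a rise of 0.89 (SE 0.18, adjusted p = 0.00158). The pro-survival Bcl2 went from 10.75, 10.85 and 11.62 to 9.99, 10.33 and 10.68, a change of -0.74 (SE 0.15, adjusted p = 0.00153). The groups did not overlap for either gene. The pro-survival Bcl2l1 (Bcl-xL) rose by 0.92 (SE 0.14, adjusted p = 9.41e-05), and the pro-apoptotic Bid fell by 0.74 on the log2 scale (SE 0.12, adjusted p = 0.000246). Members of either role thus moved both ways.

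Chaperone genes of the endoplasmic reticulum included 6 of 20 that rose and 2 that fell, a share called of 40.0%. The rises numbered 3 without batch 4 and 2 with the preparation term. From 2 h to 6 h, a step that shares the 6 h libraries, 8 of the 20 fell and none rose, where 7.04% of all genes fell. Dnajb9, a co-chaperone of BiP, was at 11.87, 11.81 and 11.04 at 6 h and at 12.83, 12.91 and 12.66 at 12 h (1.23, SE 0.18, adjusted p = 7.12e-05). Derl3, which acts in the disposal of misfolded proteins, rose by 1.29 (SE 0.23, adjusted p = 0.000574). Xbp1, a regulator of this response, was at 0.04 (adjusted p = 0.81). The cytosolic chaperonin TRiC and heat shock genes had 8 of 19 down and 1 up. The gene that rose was Hspa8 (0.78, SE 0.11, adjusted p = 3.59e-05), and without batch 4 none of the falls was called. NF-kB genes had 2 of 11 higher, MHC presentation 3 higher and 2 lower of 13, and interferon response genes 1 higher and 2 lower of 12, and none of these calls was kept with the preparation term.

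Of the 162 named genes called in Ikaros cells, 70 kept the call with the further preparation term, and none changed direction. Several of the genes described above were among those that lost it. Its adjusted p was 0.0789 for Igll1, 0.0506 for Vpreb1, 0.0673 for Ighm, 0.0921 for Lig4, 0.0535 for Foxo1, 0.0601 for Ebf1 and 0.0715 for Bach2. For growth and metabolism it was 0.112 for Nop2, 0.122 for Nle1, 0.0673 for Eif2b3, 0.0503 for Yars, 0.0601 for Slc2a1, 0.146 for Slc7a5 and 0.0536 for Fasn. For the cell cycle and survival it was 0.0547 for Mcm10, 0.0703 for Cdk1, 0.0724 for Ccne1, 0.07 for Klf2, 0.067 for Btg2, 0.0709 for Bcl2l11 and 0.0609 for Bcl2. Blnk, Syk, Rag1, Rag2, Spib, Il7r, Hk2, Ldha, Ncl, Hmgcs1, Lss, Neu1 and Cdkn1b remained called with it.

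In control cells over the same interval 669 genes were called (5.24%), 330 higher (2.59%) and 339 lower (2.66%). The difference between the lines, that is the Ikaros change minus the control change, was called for 2625 genes (20.6%), in 1404 of them positive (11.0%) and in 1221 negative (9.57%). Of the 3205 Ikaros calls 1824 (56.9%) were also called in this difference. The Ikaros and control libraries were separate, and 200 genes were called in each line, which is 6.24% of the Ikaros calls and 29.9% of the control calls. Of these, 44 moved the same way and 156 in opposite ways. Hspa8 was higher in each line, by 0.78 and 0.52. For Blnk, with a control change of 0.02 (adjusted p = 0.949), the difference was 2.83 (SE 0.17, adjusted p = 1.86e-09). For Rag1 it was 3.09 (SE 0.34, adjusted p = 5.4e-06), and for Hk2 it was -1.31 (SE 0.19, adjusted p = 0.000108). For Igll1 the difference of -0.63 was not called (adjusted p = 0.139), nor was that for Ldha (-0.38, adjusted p = 0.131) or Foxo1 (0.22, adjusted p = 0.2). With the preparation term the difference was called for 235 genes and the control change for 1. The control count was 16 without batch 1, 17 without batch 4 and 39 when culture batch was left out of the fit. It was 241 without batch 3, 52 and 188 without the 6 h library of batch 1 or 4, and 106, 224 and 133 without the 12 h library of batch 1, 3 or 4. The count for the difference was 1256, 1725 and 1301 without batches 1, 3 and 4.

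Differences called by gene group are read beside the 11.0% positive and 9.57% negative over all genes. A negative difference was called for 11 of 20 aminoacyl tRNA synthetases and 6 of 11 serine and one-carbon genes, with none positive. Purine and pyrimidine synthesis had 9 negative and 1 positive of 17. In sterol and fatty acid synthesis 14 of 29 genes were negative, in ribosome biogenesis 21 of 45 and among initiation factors 10 of 33, with none positive. In the lysosome 10 of 22 were positive and 1 negative, and among B lineage transcription factors 9 of 23 were positive and 1 negative. Immediate early and ERK feedback genes had 11 negative and 1 positive of 27. TRiC and heat shock genes had 9 negative of 19, and 5 genes of that list rose in the control cells. Fewer were called for glycolysis, with 3 negative of 21, for ribosomal proteins, with 6 negative and 2 positive of 77, for polymerase I, with 2 negative of 15, and for the pre-B receptor, with 1 positive of 7. The 6 h control libraries stood low for the 411 processed pseudogenes, with medians of 7.71, 8.21 and 8.04, against 9.10, 8.64 and 8.61 at 12 h. In control cells 68 of these rose and 7 fell, beside 2.59% and 2.66% of all genes. In Ikaros cells 13 rose and 42 fell, beside 13.0% and 12.1% of all genes. The median paired differences of the pseudogenes in batches 1, 3 and 4 were 0.97, 0.31 and 0.67 in control cells. In Ikaros cells they differed in sign, at -0.95, 0.20 and -0.26. Pseudogenes share reads with their parent genes, and the part of this in the count of 2625 was not tested. Among the 10985 protein coding genes the Ikaros calls came to 2925 (26.6%) and the control calls to 522 (4.75%).

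**Figure D4:**
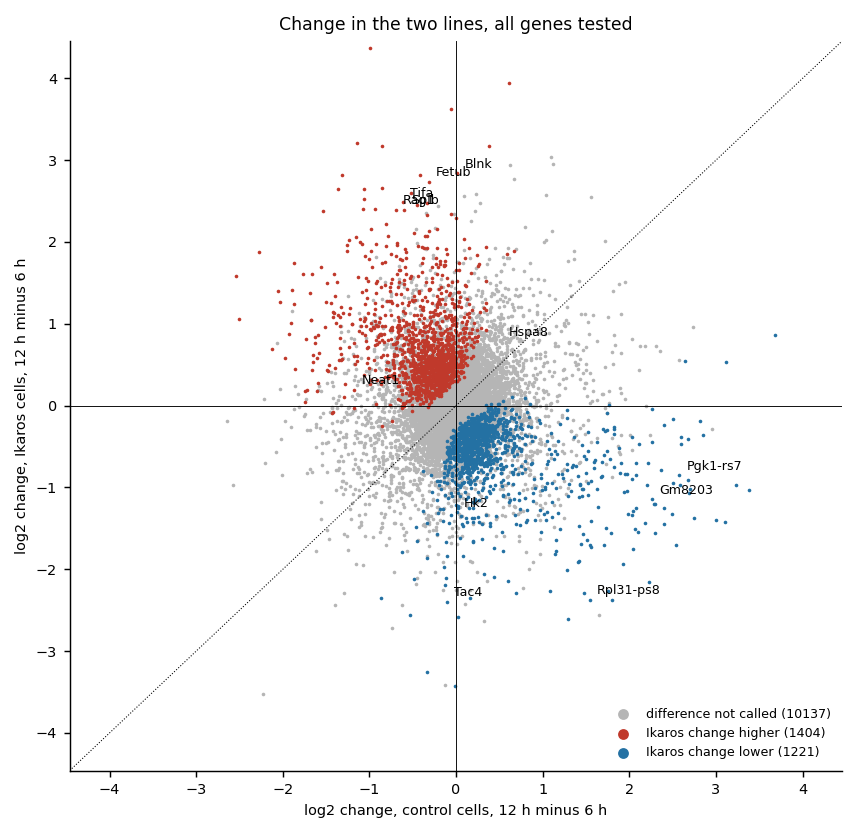
Each point is a gene, with its log2 change from 6 h to 12 h in control cells on the x axis and in Ikaros cells on the y axis, and the dotted line marks equal change. Red and blue points are the 1404 and 1221 genes whose difference between lines was called, and Blnk lies at 0.02 and 2.84.

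Set beside the other steps of the Ikaros series, that from 6 h to 12 h, with 3205 calls, lay between 1851 from 2 h to 6 h (14.5%) and 3939 from 12 h to 18 h (30.9%), and 1061 were called from 18 h to 24 h (8.31%). Neighbouring steps share the libraries of the time between them. A value that is off at 6 h therefore moves the steps on either side in opposite directions, so the steps are only given side by side. Blnk was at -0.36 (adjusted p = 0.048) from 2 h to 6 h, then rose by 2.84 and by a further 1.25 from 12 h to 18 h. Il7r fell by 0.52 from 2 h to 6 h (adjusted p = 0.00663), rose by 1.14 here and by 1.14 from 12 h to 18 h, and was at 0.35 from 18 h to 24 h (adjusted p = 0.0789). Rag1 was at -0.12 before 6 h (adjusted p = 0.786), and rose by 2.39 and then by 2.66. Spib began earlier, with a rise of 2.03 from 2 h to 6 h and 2.40 here, and was at 0.05 afterwards (adjusted p = 0.909). Dnajb9 was called at this step alone of the 4.

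The same limit of shared libraries holds for the genes that fell at this step. Igll1 had fallen by 2.52 from 2 h to 6 h, against 0.82 here, and rose by 0.61 from 12 h to 18 h. Tac4 was at -1.82, -2.40 and -0.98 over the successive steps to 18 h. Hk2 rose by 0.57 from 2 h to 6 h (adjusted p = 0.00702) before falling by 1.30 and then 1.10. Ncl was at -0.22 (adjusted p = 0.406) before and at -0.24 (adjusted p = 0.292) after, so its called change lay at this step. Slc7a5 fell by 0.49 here and by 1.60 from 12 h to 18 h. The step from 18 h to 24 h shares no library with that from 6 h to 12 h. Of the genes called in each, 431 were shared, which is 13.4% of the calls at 6 h to 12 h and 40.6% of those at 18 h to 24 h, and 361 of them moved the same way, 137 up and 224 down.

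**Figure D5:**
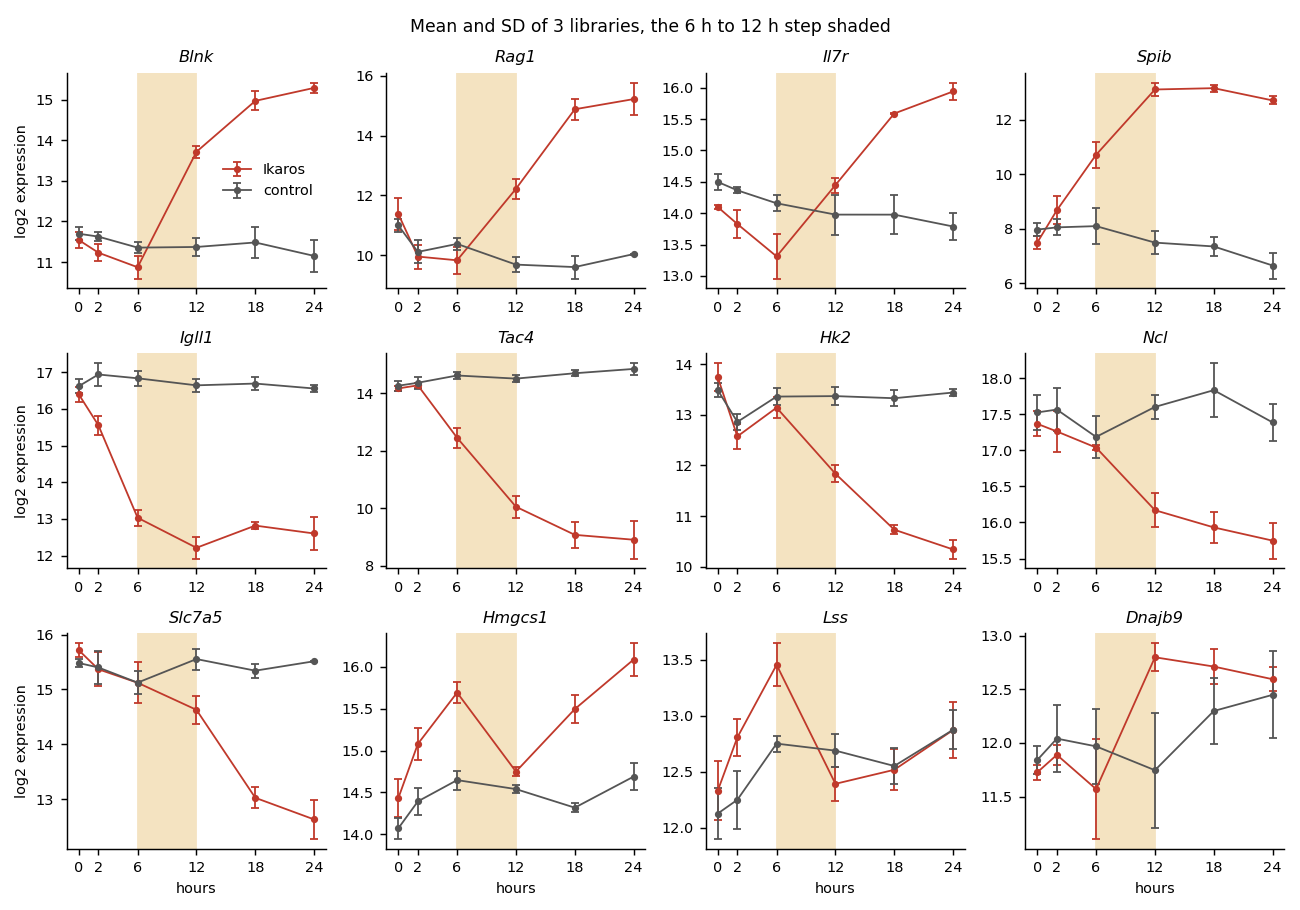
Each panel plots the mean log2 expression of a gene (y axis, not starting at 0) against hours after 4-OHT, with bars of 1 SD over 3 libraries, for Ikaros cells in red and control cells in grey, and the step from 6 h to 12 h shaded. Blnk, Rag1 and Il7r are higher at 12 h than at 6 h, Hmgcs1 and Lss are lower at 12 h than at 6 h, and Igll1 has most of its fall before 6 h.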

How the data were processed

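Messenger RNA was selected with oligo dT and sequenced in 36 libraries of B3 cells. The deposited values are log2 expression. Per the methods, the authors aligned reads to mm10 with TopHat2, counted them per gene with HTSeq and normalised with cqn. They then corrected library preparation effects with non-parametric ComBat. The lowest value is 1.0, and whether a constant was added is not stated in the sources used here. The deposited values hold no read counts, so no floor is given, and the sequencing depth was not used here. The log base was taken from the cqn scale, and the HTSeq strand setting is not given in the sources used here, so overlapping and antisense genes are uncertain.

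The fit used limma 3.58.1 under R 4.3.3 (30 libraries at 2, 6, 12, 18 and 24 h, 10 group means, culture batch 1, 3 or 4 as a block). Libraries at 0 h came from other cultures and were left out. P-values were adjusted by Benjamini-Hochberg over 12762 genes and measure the spread between these libraries, which shared cultures. The labels give the shared culture batch. Correlations of the deviations of same-batch libraries at 6 h and 12 h were -0.06, 0.09 and 0.19 in Ikaros cells and 0.16, 0.12 and 0.38 in control cells. No filter on low values was applied.

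Members and lists were chosen with earlier results of these data known. Named genes were Ikzf1, 7 genes followed by RT-PCR in the study, the 12 largest called rises and falls with a symbol, a mean over all 36 libraries at or above the median and non-overlapping groups, 5 for the difference between lines and 3 for control cells by a like rule, and up to 3 per direction from each of 34 lists. Further list members were named after their values were seen, and some members are not reported here. Gene positions came from GENCODE M21, which matched 12592 genes. The 170 unmatched genes have no position. The fit was tested on simulated data. Alternatives were the fit without the block, 36 libraries, 6 libraries, separate blocks, a preparation term, quantile normalisation, a filter, robust settings, and leaving out libraries or batches. Tables and figures used Python 3.11.15, pandas 2.3.3, NumPy 2.4.6 and Matplotlib 3.10.9.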

Additional observations from a re-analysis of the deposited data

Results flagged for a closer look

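The change from 6 h to 12 h differed between Ikaros and control cells for 2625 genes by the interaction test in limma. Among those with a mean over all 36 libraries at or above the median and non-overlapping changes, the largest positive differences were in Tifa (3.11), Fetub (3.05), Blnk (2.83), Gm12840 (2.33) and Rere (2.04). The control changes of Blnk, Fetub, Rere and Gm12840 were not called, while Tifa changed by -0.62 in control cells (adjusted p = 0.003).

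The largest negative differences were in Rpl31-ps8 (-3.91), Pgk1-rs7 (-3.43), Gm8203 (-3.41), Gm9843 (-3.32) and Gm10705 (-3.25), of which all but Gm8203, unmatched in the annotation, are annotated or named as copies of other genes. Pgk1-rs7 was at 9.93, 12.31 and 9.87 in the 6 h control libraries of batches 1, 3 and 4 and at 14.06, 13.39 and 12.40 at 12 h. In Ikaros cells it was at 14.96, 14.05 and 12.47 and then at 12.23, 14.97 and 11.73, and its change was not called there (adjusted p = 0.393). Gm8203 likewise changed by 2.26 in control cells (adjusted p = 0.0117) and by -1.15, not called, in Ikaros cells (adjusted p = 0.0709). The part of reads shared with parent genes in these values was not tested.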

How the results depend on the processing

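The 3205 calls in Ikaros cells became 2302 with no replicate block, 739 with the library preparation term beside the block, and 0 when only the 6 Ikaros libraries were fitted by limma with the block, where no adjusted p was below 0.0924 and 2287 genes passed an unadjusted p of 0.05. The values had already been corrected for preparation. The 669 control calls became 39 with no replicate block, 144 with all 36 libraries and no replicate block, and 1 with the preparation term. The 2625 calls for the difference between lines became 1690 with no replicate block, which pairs libraries by culture batch, and 235 with the preparation term. Leaving out a replicate or library gave 1361 to 3325 calls in Ikaros cells, 16 to 621 in control cells and 1256 to 2523 for the difference. Quantile normalisation, the filter on low values, robust settings and separate blocks kept each of the 3 counts within 1.5 times. Over 3027 alternative results for named genes, 2411 kept their side of the threshold, 616 lost it and 0 changed direction. Of the 168 named genes 162 were called in Ikaros cells, 84 of these were called in every omission, and 70 with the preparation term. The values hold no read counts, and precision was judged from 3 libraries per group.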
